A study of Mus musculus with 29 samples.

Results

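The Zfp genes are the mouse genes named for encoding zinc finger proteins, and the 179 described here are those that mouse oocytes or zygotes expressed at a set level. They were selected on their symbol, Zfp followed by a number and Zfp352 aside, and chosen by their level, a mean of at least 10 CPM (the count scaled to a library's total) in at least 1 of 4 WT groups: GO 2W, FGO 4W, MII 3W or zygote 3W. Of 371 such symbols in the count table, which held 49997 genes in all, 179 met this rule and 192 did not. The WT levels therefore chose the genes and are given as a description, while no CKO library and no FGO 3W library was used to choose them.

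The libraries were made by Smart-seq2, which copies poly(A) RNA, from tubes of 10 cells. CKO cells carried the genotype Dhx36fl/fl; Zp3-Cre and WT cells carried Dhx36fl/fl, so the floxed allele of the RNA helicase gene Dhx36 was common to both and Cre, driven by the oocyte promoter Zp3, was found in the CKO alone. The stages were the growing oocyte at 2W of age (GO 2W; 3 CKO and 3 WT libraries), the fully grown oocyte at 3W (FGO 3W; 2 and 2) and 4W (FGO 4W; 3 and 3), the metaphase II oocyte at 3W (MII 3W; 4 and 3) and the zygote at 3W (zygote 3W; 3 and 3). The labels did not say whether libraries of a group came from different females, so the spread between tubes may be technical. The p-values rest on a spread estimated jointly over the tubes of all 10 groups, not on those of a stage alone.

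Most Zfp proteins bind DNA through arrays of C2H2 zinc fingers, each finger holding a zinc ion and touching a few bases. Many also carry a KRAB box at the amino end, which recruits the co-repressor TRIM28 (KAP1) and, through it, histone H3K9 methylation; this machinery silences retrotransposons and, in the case of ZFP57, protects the methylation of imprinted genes after fertilization. DHX36 is a helicase that unwinds G-quadruplexes, the 4-stranded structures that runs of guanines can form in RNA and DNA. An oocyte stops transcribing when fully grown, so its later poly(A) RNA levels depend on RNA decay and on changes of poly(A) tail length, and a poly(A) library cannot tell these apart.

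Promoters of 7 members are printed because the later results turn on them, each covering 250 bases before and 50 after a start site listed by RefSeq on GRCm38.p6, 5′ to 3′ on the gene's own strand. For Zfp296, Zfp111, Zfp985 and Zfp988 that site is the outer end of the gene span; for Zfp940, Zfp423 and Zfp109 it lies 47, 2458 and 14741 bases inside it. Zfp111 and Zfp423 each have a further listed site, which is not shown. The first pair belongs to Zfp296 (chr7:19577037-19577336, plus strand) and Zfp423 (chr8:87959546-87959845, minus strand), the members that were lower and higher in the CKO at every stage. Capitals mark each match to a G-quadruplex motif, 4 runs of at least 3 G with 1 to 7 bases between runs, read on either strand.
Zfp296: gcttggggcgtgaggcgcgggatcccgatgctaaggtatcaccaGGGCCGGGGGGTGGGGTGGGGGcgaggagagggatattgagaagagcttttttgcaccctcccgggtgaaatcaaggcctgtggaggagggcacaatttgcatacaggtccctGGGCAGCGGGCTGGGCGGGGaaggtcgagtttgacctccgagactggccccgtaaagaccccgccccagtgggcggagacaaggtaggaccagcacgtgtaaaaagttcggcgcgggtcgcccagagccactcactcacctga
Zfp423: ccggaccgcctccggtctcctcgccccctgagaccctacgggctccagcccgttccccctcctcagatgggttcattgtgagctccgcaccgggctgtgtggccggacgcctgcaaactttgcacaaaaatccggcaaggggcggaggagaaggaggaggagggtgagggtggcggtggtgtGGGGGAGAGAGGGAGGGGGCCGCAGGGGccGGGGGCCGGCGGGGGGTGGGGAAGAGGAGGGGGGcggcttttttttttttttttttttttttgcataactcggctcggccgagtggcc
Both promoters held 2 matches. Of 148 members with a promoter sequence, 28 (18.9%) held the motif in at least 1 listed promoter, close to the 20.4% of all 27025 genes with one. It was found for 10 of 91 members with a KRAB box (11.0%) and 18 of 56 without (32.1%).

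The next promoters belong to Zfp109 (chr7:24237549-24237848, minus strand), Zfp111 (chr7:24208100-24208399, minus strand) and Zfp940 (chr7:29853599-29853898, minus strand), KRAB members of 2 gene groups on chromosome 7. Capitals mark ACTACA followed by any 2 bases and TCCC, known as a recognition motif of ZFP143, itself a member, searched on both strands. The motif was chosen after sequences and values had been seen.
Zfp109: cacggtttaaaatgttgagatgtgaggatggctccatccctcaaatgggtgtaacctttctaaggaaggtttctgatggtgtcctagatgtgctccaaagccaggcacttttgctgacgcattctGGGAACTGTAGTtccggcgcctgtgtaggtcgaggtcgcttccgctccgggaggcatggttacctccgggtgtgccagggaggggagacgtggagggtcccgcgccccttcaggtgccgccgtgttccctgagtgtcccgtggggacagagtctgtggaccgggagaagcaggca
Zfp111: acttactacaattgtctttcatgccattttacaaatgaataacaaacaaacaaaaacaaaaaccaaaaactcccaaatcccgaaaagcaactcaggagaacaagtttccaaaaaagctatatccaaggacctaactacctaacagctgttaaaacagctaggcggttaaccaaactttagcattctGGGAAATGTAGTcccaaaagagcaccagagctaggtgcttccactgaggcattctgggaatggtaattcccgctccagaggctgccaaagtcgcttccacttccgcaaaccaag
Zfp940: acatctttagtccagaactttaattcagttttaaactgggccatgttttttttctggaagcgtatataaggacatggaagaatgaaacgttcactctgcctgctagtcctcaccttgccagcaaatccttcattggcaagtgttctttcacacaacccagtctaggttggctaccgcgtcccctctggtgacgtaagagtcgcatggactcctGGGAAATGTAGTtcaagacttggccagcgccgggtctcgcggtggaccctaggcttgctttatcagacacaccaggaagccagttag
The motif was present for 24 of 148 members (16.2%), 20 of them with a KRAB box, against 2.08% of all genes with a promoter sequence. Most of the 24 lay on chromosomes 7 and 13, among them all 7 members of a chromosome 13 group (67069398 to 67755202). Neighbours of the same gene group thus make up part of this share. In 0 of these 24 members a match overlapped a G-quadruplex match. A match describes the letters and not a bound site.

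The last pair shows how alike neighbouring members can be. Zfp985 (chr4:147553027-147553326, plus strand) and Zfp988 (chr4:147305354-147305653, plus strand) are KRAB genes of a group on chromosome 4. Capitals mark runs of at least 20 bases that were identical in the alignment of the pair.
Zfp985: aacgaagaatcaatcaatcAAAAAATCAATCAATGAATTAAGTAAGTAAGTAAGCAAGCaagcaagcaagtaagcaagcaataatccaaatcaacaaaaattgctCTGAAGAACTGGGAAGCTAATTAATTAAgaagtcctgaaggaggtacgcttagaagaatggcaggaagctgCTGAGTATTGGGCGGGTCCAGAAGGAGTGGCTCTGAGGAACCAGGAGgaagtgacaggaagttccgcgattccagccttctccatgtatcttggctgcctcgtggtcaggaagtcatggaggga
Zfp988: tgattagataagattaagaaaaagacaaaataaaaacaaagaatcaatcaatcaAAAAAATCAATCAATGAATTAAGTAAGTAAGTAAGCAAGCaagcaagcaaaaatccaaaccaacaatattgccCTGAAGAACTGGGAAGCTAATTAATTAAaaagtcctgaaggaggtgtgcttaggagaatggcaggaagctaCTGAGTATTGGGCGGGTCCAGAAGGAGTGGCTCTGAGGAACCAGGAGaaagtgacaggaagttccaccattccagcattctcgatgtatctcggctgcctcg
Of 265 aligned bases 249 were identical (94.0%), and 3 such runs held 115 bases. Zfp979 of the same group shared 90.5% of aligned bases with Zfp985 and 91.1% with Zfp988, while Zfp109 and Zfp111 shared 67.0%.

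A KRAB box was found in the translated sequence of 103 members, which had a median of 12 C2H2 fingers (range 2 to 23), and was not found in 75, with a median of 6 (range 0 to 36). Zfp939 had no coding transcript to search. Chromosomes 7, 17, 8 and 4 carried 40, 25, 17 and 15 of the members. Near-identical copies can share reads: 22 members had over 20% of their 50-base windows in another gene's transcript, 89 had none, and counts of the 22 are uncertain.

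Totals per library ran from 17697507 to 49104313 counts, so a member at 10 CPM rested on well over 100 counts in each library. Counts of Dhx36 were not lower in the CKO at any stage, and at MII 3W they were higher, at 2772, 538, 1080 and 288 CPM in CKO against 288, 284 and 306 CPM in WT (log2 change 1.79, SE 0.43, edgeR adjusted p = 0.00197). A whole-gene count does not separate the floxed exons, so it cannot check the genotype labels. CKO MII 3W replicates 2 and 3 and CKO zygote 3W replicate 1 stood apart from the rest of their groups in several results below. Some of these results, not all, are also given without them. Among cumulus and granulosa markers, Fshr was at 0 to 40.4 CPM in CKO libraries and 0 to 2.4 CPM in WT libraries. Foxl2 and Amh stayed at or below 0.732 and 0.559 CPM in all libraries, and the other markers were looked at only as a sum. At GO 2W Fshr made 24.4 CPM of a mean marker sum of 167 CPM in CKO, and 1.78 of 80.2 CPM in WT. Most of the CKO excess at that stage therefore lay in other markers. The summed marker level was 132 to 186 CPM in CKO against 69.1 to 85.9 CPM in WT growing and fully grown oocytes, 107 to 166 against 117 to 126 CPM at MII 3W and 86.2 to 169 against 72 to 85.8 CPM in zygotes. Its part in the results was not tested, and in bulk tubes fewer cells of a type and less RNA per cell cannot be told apart.

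The members were expressed through the whole series, and 105 of the 179 reached 10 CPM in all 4 groups of the rule. A further 34 reached it in 3 groups, 22 in 2 and 18 in 1. Just inside the threshold were Zfp947 (10.1 CPM), Zfp672 (10.11 CPM) and Zfp418 (10.23 CPM), and just outside were Zfp27 (9.743 CPM), Zfp703 (9.706 CPM) and Zfp775 (9.562 CPM), each as its highest mean in the rule's groups. All 179 passed the low-count filter of the test.

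Per transcript length, a few members stood far above the others in WT. Zfp296, a gene active in germ cells and pluripotent cells, was highest among members in growing and fully grown oocytes, at 312 ± 29.4 FPKM in GO 2W, 272 ± 1.11 in FGO 3W and 388 ± 41.2 in FGO 4W (SD, n = 3, 2 and 3). Zfp57, the imprint regulator, was the next at these stages, at 173 ± 4.49, 168 ± 6.76 and 199 ± 12.2 FPKM. The median member was at 5.48, 5.50 and 5.67 FPKM.

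In WT MII oocytes the order changed. Zfp655 led at 169 ± 4.47 FPKM, with Zfp957 at 166 ± 7.12 FPKM within the spread of it, while Zfp296 was at 28.5 FPKM and Zfp57 at 44.3 FPKM. In WT zygotes Zfp57 led at 278 ± 12.4 FPKM (n = 3). Zfp655 followed at 146 ± 8.46 FPKM and Zfp957 at 145 ± 23.8 FPKM, 2 levels that did not differ beyond their spread. Medians over members with and without a KRAB box were alike at each stage, for example 4.91 and 5.34 FPKM in zygotes.

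Between CKO and WT the members moved in both directions in the growing oocyte and mostly down from the 4W fully grown oocyte on. At GO 2W, 22 members were higher and 14 lower in the CKO, against 7.34% and 6.38% of all 21768 genes tested that were called higher and lower (edgeR quasi-likelihood test, Benjamini-Hochberg adjusted p under 0.05, the rule for all calls). At FGO 3W 28 were higher and 27 lower, against 8.19% and 9.62%. At FGO 4W 19 were higher and 48 lower, against 11.8% and 14.8%.

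The largest excess of lower calls was in MII oocytes and zygotes. At MII 3W 22 members were higher and 72 lower (12.3% and 40.2% of 179), against 18.2% and 14.7% of all genes, and the median log2 change was -0.46 over members and 0.13 over all genes. At zygote 3W 17 were higher and 56 lower (9.50% and 31.3%), against 14.5% and 12.5% of all genes, with medians of -0.34 and 0.08. Because WT levels chose the members, the 9109 genes that met the same level rule are the closer background: 22.0% of them were higher and 28.2% lower at MII 3W, and 19.2% higher and 23.1% lower at zygote 3W. Of the 176 members that reached 10 CPM in a WT group outside the contrast 70 were lower at MII 3W, and of 178 at zygote 3W 56 were lower. Nearly all members were kept, so these counts could hardly move and do not check the choice by level.

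At the earlier stages the level-matched background lay close to the members only at FGO 4W. It was 7.11% higher and 12.2% lower at GO 2W (members 12.3% and 7.82%), 7.79% and 18.7% at FGO 3W (members 15.6% and 15.1%) and 10.8% and 26.2% at FGO 4W (members 10.6% and 26.8%). The share of lower members at FGO 4W was thus near that background. Leaving out 1 library changed the GO 2W and FGO 3W counts the most. Without WT GO 2W replicate 1 or 2, or CKO GO 2W replicate 1 or 3, there were 14, 10, 13 and 10 higher members and 7, 6, 8 and 7 lower ones. Without WT FGO 3W replicate 1 or 2 the number of higher members was 13 or 11, and without CKO FGO 3W replicate 1 or 2 it was 8 or 15 with 16 or 15 lower. Higher members numbered 12 at FGO 4W without WT replicate 3, 14 at MII 3W without WT replicate 1 and 11 at zygote 3W without WT replicate 3.

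The balance of higher and lower calls moved with the scaling, while at MII 3W and zygote 3W lower calls stayed the more frequent. Scaled by library totals in place of TMM, the members were higher in 30, 37, 26, 30 and 13 cases and lower in 7, 18, 33, 52 and 66 cases from GO 2W to zygote 3W. That scaling moved the median log2 change of all genes to 0.15 at GO 2W, 0.20 at FGO 3W, 0.18 at FGO 4W, 0.32 at MII 3W and -0.02 at zygote 3W, where the TMM fit had it at -0.01, -0.05, -5.58e-06, 0.13 and 0.08. RLE factors gave 31 higher and 22 lower members at FGO 3W.

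**Figure D1:**
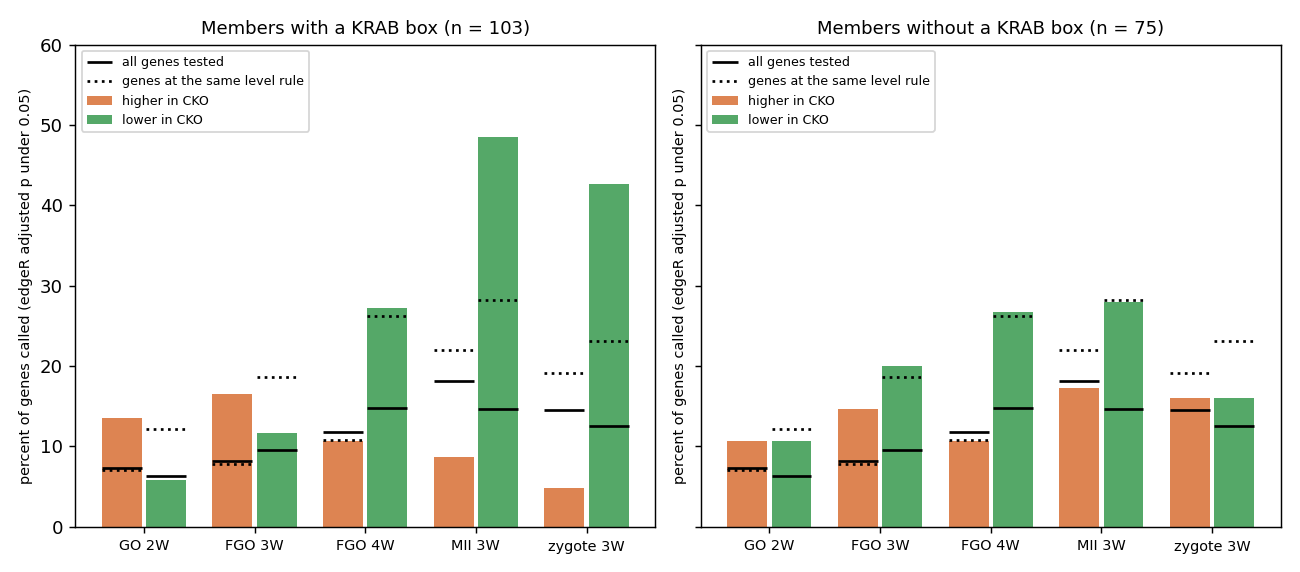
Percent of members called higher or lower in CKO than in WT at each stage, as neighbouring bars, for 103 members with a KRAB box and 75 without, with the share among all genes tested (solid) and among genes at the same level rule (dotted) drawn as lines. The lower share of KRAB members is 48.5% at MII 3W and 42.7% at zygote 3W.

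Of the members lower at the last stages more had a KRAB box than not. At MII 3W 50 of 103 KRAB members were lower and 9 higher in the CKO (median log2 change -0.65), and at zygote 3W 44 were lower and 5 higher (median -0.59). Of the 75 members without a KRAB box, 21 were lower and 13 higher at MII 3W (median -0.29), and 12 were lower and 12 higher at zygote 3W (median -0.03). At FGO 4W the classes were alike, with 28 KRAB members lower and 11 higher against 20 and 8 without the box. At GO 2W 14 KRAB members were higher and 6 lower, and at FGO 3W 17 were higher and 12 lower. Scaled by library totals, 38 KRAB members were lower and 13 higher at MII 3W and 45 lower and 3 higher at zygote 3W, while members without the box turned to 17 higher and 13 lower at MII 3W and to 10 higher and 21 lower at zygote 3W. The difference between the classes was not tested.

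The split rested in part on the 3 libraries that stood apart. With CKO MII 3W replicates 2 and 3 and CKO zygote 3W replicate 1 left out, a choice made after seeing the data, 39 KRAB members were lower at MII 3W (37.9%) and 43 at zygote 3W (41.7%), against 28.1% and 33.0% of genes at the same level rule. Members without a KRAB box were then lower in 22 cases at MII 3W (29.3%) and 26 at zygote 3W (34.7%). A fit of the zygote groups alone called 25 KRAB members lower, and 988 of all 15519 genes against 2719 of 21768 in the main fit. With 1 library left out at a time, KRAB members were lower in 41 to 52 cases and higher in 5 to 11 at MII 3W, and lower in 37 to 44 and higher in 3 to 9 at zygote 3W. Members without the box were lower in 16 to 21 cases and higher in 8 to 16 at MII 3W, with 8 higher without WT replicate 1 or 2, and lower in 11 to 26 and higher in 8 to 12 at zygote 3W. The 26 came without CKO zygote 3W replicate 1, where 39 KRAB members were lower, so most of the gap between the classes at that stage was lost without 1 library; without each other zygote library 11 to 14 members without the box were lower.

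The counts of higher KRAB members at the earlier stages were less steady. They ranged over 7 to 14 at GO 2W, with 7 without WT replicate 2, 8 without CKO replicate 3 and 9 without WT replicate 1. At FGO 3W leaving out any of the 4 libraries took them to 5 to 8.

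Summed over genes, the KRAB members carried less of the library in CKO MII oocytes and zygotes, and at MII 3W so did members without the box. Without Zfp57, whose count is large, they summed to 3987, 2372, 2383 and 4677 CPM in CKO against 4937, 4956 and 5127 CPM in WT at MII 3W, and to 2062, 4241 and 4702 CPM in CKO against 5582, 5055 and 5282 CPM in WT at zygote 3W. All CKO libraries lay below all WT libraries at both stages, CKO MII 3W replicates 2 and 3 and CKO zygote 3W replicate 1 lowest. Divided by the TMM factors as well, the sums still did not overlap, at 2910 to 5499 in CKO against 6928 to 7180.0 in WT at MII 3W and 2723 to 5180 in CKO against 5380 to 5844 in WT at zygote 3W. At GO 2W the CPM order was the reverse, with 5878 to 6421 CPM in CKO and 3659 to 5209 CPM in WT, but after division by TMM factors the groups overlapped (4610 to 5133 for CKO, 3270 to 4731 for WT). Members without a KRAB box summed to 3815 to 5138 CPM in CKO against 5228 to 5341 CPM in WT at MII 3W, again with no overlap. At zygote 3W they summed to 4286 to 5173 against 5042 to 5478 CPM, where the groups overlapped. Divided by TMM factors, these sums were 5222 to 6041 in CKO against 7408 to 7467 in WT at MII 3W, still apart. At zygote 3W they were 5550 to 5699 against 5519 to 5734 and overlapped.

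**Figure D2:**
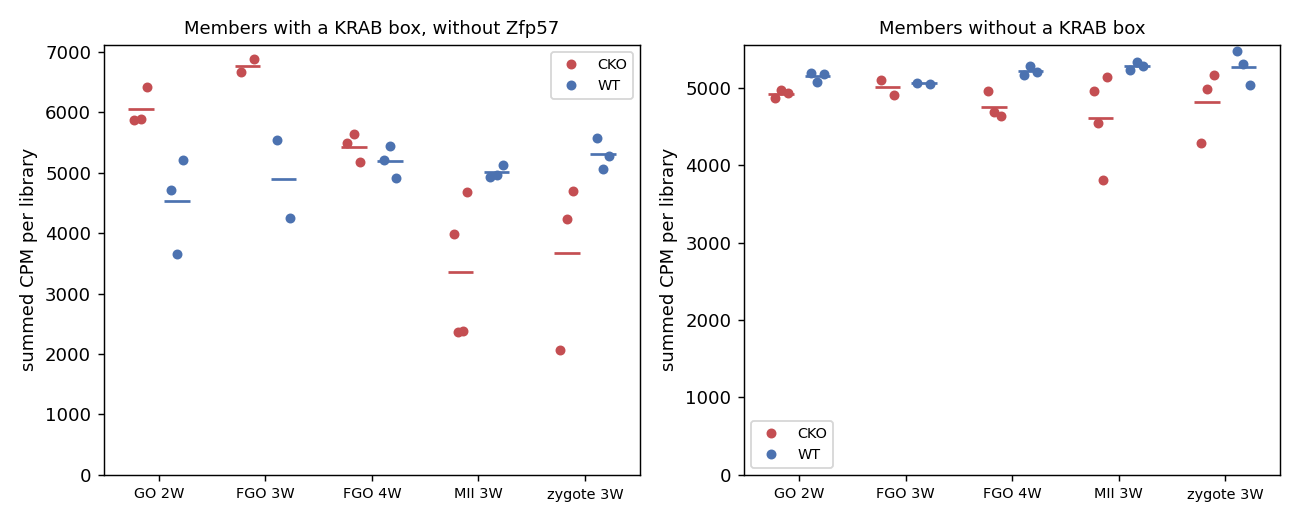
Summed CPM per library of the members with a KRAB box, Zfp57 left out, and of those without, by stage, CKO left of WT; each point is 1 library of 10 cells. The 3 CKO zygote libraries sit at 2062 to 4702 CPM for KRAB members, below the 3 WT libraries.

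Zfp57, the KRAB protein that with ZFP445 keeps methylation at imprinted control regions in mice, differed most in the zygote. It had 1480, 1038 and 1611 CPM in CKO zygotes against 3712, 3410 and 3649 CPM in WT zygotes. Every CKO zygote library lay far below every WT one. The log2 change was -1.24 (SE 0.17, edgeR adjusted p = 4.02e-06).

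At the earlier stages Zfp57 moved less. At GO 2W it had 1775, 1800.1 and 1774 CPM in CKO against 2295, 2225 and 2180.0 CPM in WT, groups that did not overlap, with a log2 change of -0.49 (SE 0.17, edgeR adjusted p = 0.0492). At MII 3W it had 774, 431, 496 and 763 CPM in CKO against 577, 555 and 586 CPM in WT. These overlapped, with CKO replicates 2 and 3 below WT and replicates 1 and 4 above, and the log2 change was -0.10 (edgeR adjusted p = 0.666).

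Zfp57 at FGO 4W shows the part of the size factors: CKO libraries had 3144, 2542 and 2715 CPM and WT libraries 2421, 2540.3 and 2734 CPM, yet the fitted log2 change was -0.06 (edgeR adjusted p = 0.840). The fit scales by TMM factors, which were larger in CKO than WT growing and fully grown oocytes (1.21 to 1.30 against 1.03 to 1.14), whereas CPM uses the totals alone. Across fertilization Zfp57 rose in CKO by 1.12 on the log2 scale (zygote over MII; SE 0.16, edgeR adjusted p = 5.05e-06) and was 2.25 higher in WT. The difference of the genotype effect between zygote and MII was -1.14 (SE 0.23, edgeR adjusted p = 0.00102).

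Zfp445, the other KRAB imprint regulator, was called at no stage. In zygotes it had 20.1, 9.02 and 25.2 CPM in CKO against 20.6, 25.4 and 25.6 CPM in WT (log2 change -0.25, SE 0.25, edgeR adjusted p = 0.496). CKO replicate 2 was low and the others lay at the WT level.

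**Figure D3:**
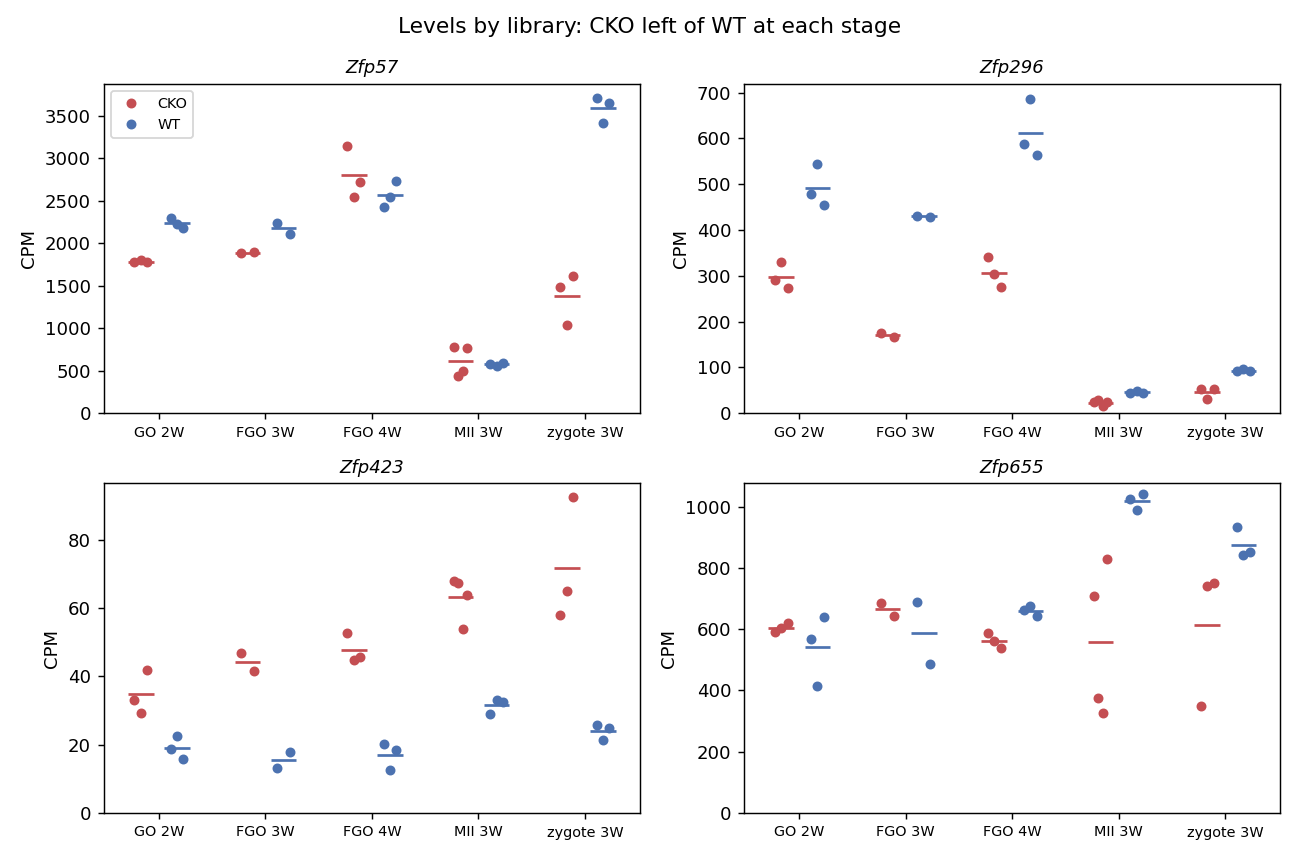
CPM per library of Zfp57, Zfp296, Zfp423 and Zfp655 at the 5 stages, CKO left of WT, each point 1 library. Zfp296 is lower and Zfp423 higher in CKO at every stage, and Zfp57 separates most in zygotes, at 1038 to 1611 CPM in CKO and 3410 to 3712 CPM in WT.

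Zfp296 (chromosome 7, 19577287 to 19580656) was lower in the CKO at all 5 stages. It had 291, 329 and 273 CPM in CKO against 478, 544 and 454 CPM in WT at GO 2W, and 342, 303 and 275 CPM in CKO against 588, 686 and 563 CPM in WT at FGO 4W. At MII 3W it was lower in both genotypes, with 25.0, 28.1, 16.2 and 23.4 CPM in CKO against 42.9, 48.0 and 44.3 CPM in WT. The ranges were apart at each stage, and the log2 changes were -0.89 at GO 2W, -1.60 at FGO 3W, -1.19 at FGO 4W, -1.16 at MII 3W and -0.88 at zygote 3W (edgeR adjusted p from 5.77e-06 to 0.00128).

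Zfp423 (chromosome 8, 87661810 to 87962053) encodes a cofactor of BMP signalling with 27 fingers found here, and was higher in the CKO at all 5 stages. It had 33.2, 29.4 and 42.0 CPM in CKO against 18.6, 22.4 and 15.9 CPM in WT at GO 2W, and 58.0, 65.1 and 92.6 CPM in CKO against 25.7, 21.4 and 24.9 CPM in WT zygotes. No ranges overlapped. Its log2 changes were 0.71, 1.25, 1.31, 0.81 and 1.71 from GO 2W to zygote 3W (edgeR adjusted p from 1.35e-07 to 0.00916).

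The other members higher at 4 stages were Zfp217, Zfp639 and Zfp940. Zfp217, a transcriptional repressor whose human counterpart is amplified in breast cancer, was higher by 0.92 on the log2 scale in growing oocytes, by 0.89 and 1.18 in those fully grown at 3W and 4W and by 1.03 in zygotes, and missed the threshold at MII 3W (edgeR adjusted p = 0.0505). Zfp639 was not called at FGO 4W. The KRAB gene Zfp940 had 68.1 and 77.0 CPM in CKO against 11.8 and 8.84 CPM in WT at FGO 3W. These are the highest values of the gene with those of FGO 4W, and the log2 change was 2.54 (SE 0.32, edgeR adjusted p = 4.81e-06).

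Apart from Zfp296, the members lower at 4 stages were Zfp90, Zfp108, Zfp398, Zfp553, Zfp563, Zfp750 and Zfp933. Zfp750, whose protein drives epidermal differentiation and held no C2H2 match here, had 225, 255, 121 and 187 CPM in CKO against 411, 424 and 424 CPM in WT at MII 3W. All CKO libraries were below WT, and the log2 change was -1.30 (SE 0.17, edgeR adjusted p = 8.14e-07). The KRAB gene Zfp398 had 10.7, 7.25 and 10.5 CPM in CKO against 42.7, 46.0 and 32.8 CPM in WT zygotes (log2 change -1.94, SE 0.23, edgeR adjusted p = 5.88e-07). The KRAB gene Zfp108 had 54.2, 78.7 and 81.2 CPM in CKO against 251, 229 and 241 CPM in WT zygotes, with no overlap (log2 change -1.63, SE 0.18, edgeR adjusted p = 1.95e-07).

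Over the 5 stages, 21 members were called at none, 59 at 1, 52 at 2, 29 at 3, 15 at 4 and 3 at all 5. At both MII 3W and zygote 3W 30 members were lower (16.8%, against 5.18% of all genes and 11.0% at the same level rule), 25 of them with a KRAB box. In opposite directions at different stages 19 members were called (10.6%, against 5.66% of all genes and 10.3% at the same level rule). The comparisons at different stages share no library.

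**Figure D4:**
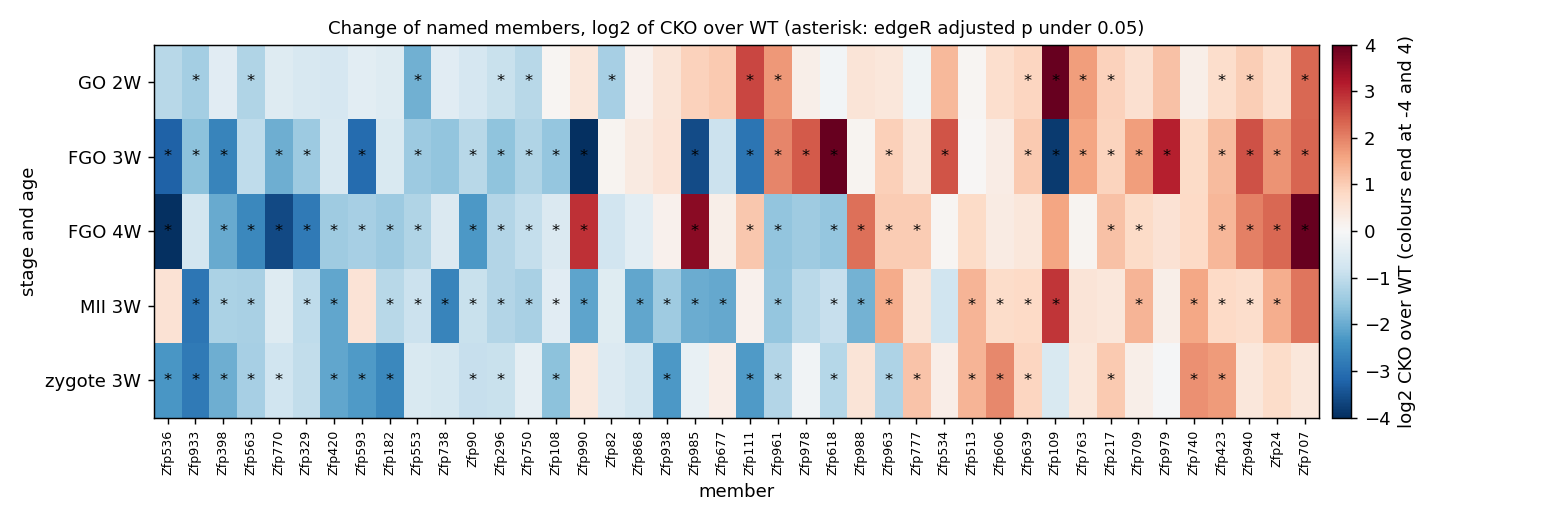
Log2 change (CKO over WT) of 42 members named for the size of a change or for changes at 4 or more stages, by stage, with called cells marked. Zfp296 is lower and Zfp423 higher throughout, and several members change direction between FGO 3W and FGO 4W.

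The largest single changes were in fully grown oocytes. At FGO 4W the KRAB gene Zfp707 had 123, 207 and 98.8 CPM in CKO against 14.1, 2.56 and 3.76 CPM in WT. All CKO libraries lay far above WT, and the log2 change was 4.23 (SE 0.59, edgeR adjusted p = 5.20e-06). Zfp24, a regulator of myelination in mice, had 27.7, 28.0 and 24.9 CPM in CKO against 4.54, 6.04 and 3.91 CPM in WT at that stage. The groups were well apart, and the log2 change was 2.28 (SE 0.29, edgeR adjusted p = 1.62e-06). Zfp707 was also higher by 2.29 at GO 2W and 2.32 at FGO 3W, and Zfp24 by 1.80 at FGO 3W and 1.45 at MII 3W.

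Zfp770 and Zfp536 were the members that fell most at FGO 4W. Zfp770 had 1.21, 0.868 and 1.26 CPM in CKO against 10.5, 12.8 and 12.1 CPM in WT (log2 change -3.60, SE 0.28, edgeR adjusted p = 5.66e-10). Zfp536, a repressor of neuronal differentiation, had 0.280, 0.911 and 0.314 CPM in CKO against 14.5, 1.76 and 15.5 CPM in WT. WT replicate 2 lay near the CKO libraries, and the log2 change was -4.54 (SE 0.65, edgeR adjusted p = 6.65e-06). Both were also lower at FGO 3W, by -1.94 and -3.25, and at zygote 3W, by -0.78 and -2.31. At MII 3W neither was called, with log2 changes of -0.50 and 0.57.

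At FGO 3W, where each genotype had 2 libraries, Zfp618, whose protein binds UHRF2, had 10.6 and 13.1 CPM in CKO against 0.591 and 0.467 CPM in WT. The groups did not overlap, which held for 67.9% of all genes tested at this stage and was a condition for naming the gene. The log2 change was 4.20 (SE 0.42, edgeR adjusted p = 1.08e-07). At FGO 4W, MII 3W and zygote 3W Zfp618 was lower, by -1.54, -0.92 and -1.13. The KRAB gene Zfp961 changed in the same way, higher by 1.73 and 1.97 at GO 2W and FGO 3W and lower by -1.58, -1.54 and -1.17 at the later stages, although at FGO 4W and zygote 3W a single library placed its ranges in overlap.

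In MII oocytes Zfp655, without a KRAB box, had 707, 375, 325 and 828 CPM in CKO against 1025, 988 and 1040.2 CPM in WT. CKO replicates 2 and 3 were lowest, all CKO libraries were below WT, and the log2 change was -1.08 (SE 0.22, edgeR adjusted p = 0.000289). Zfp420 had 6.32, 2.47, 3.87 and 8.66 CPM in CKO against 17.1, 17.8 and 23.2 CPM in WT MII oocytes (log2 change -2.08, SE 0.29, edgeR adjusted p = 2.61e-06). It was also lower by -1.41 at FGO 4W and -2.08 in zygotes.

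In zygotes the KRAB gene Zfp933 had 1.63, 2.23 and 3.41 CPM in CKO against 21.1, 17 and 18.1 CPM in WT. No ranges overlapped, and the log2 change was -2.83 (SE 0.35, edgeR adjusted p = 8.68e-07); at MII 3W it was -2.88. The X-linked KRAB gene Zfp182 had 3.36, 3.79 and 4.95 CPM in CKO against 27.3, 21.0 and 30.1 CPM in WT zygotes (log2 change -2.57, SE 0.31, edgeR adjusted p = 6.32e-07) and was lower by -1.45 at FGO 4W and -1.11 at MII 3W. The KRAB gene Zfp606 went the other way, with 11.4, 33.4 and 32.8 CPM in CKO against 7.93, 7.97 and 5.80 CPM in WT zygotes (log2 change 1.94, SE 0.28, edgeR adjusted p = 6.85e-06). Zfp740 was higher by 1.82 and Zfp513 by 1.36. All 3 were higher at MII 3W as well, by 0.73, 1.56 and 1.35. Without CKO zygote replicate 1, Zfp513 was higher by 0.73 (edgeR adjusted p = 0.112), and the KRAB gene Zfp777, higher by 1.14 with all libraries, by 0.26 (edgeR adjusted p = 0.452).

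Members with known roles outside KRAB silencing changed one by one. Zfp143, an activator at many housekeeping and small nuclear RNA promoters, had 136, 137 and 141 CPM in CKO against 71.2, 45.7 and 76.5 CPM in WT at GO 2W. The groups did not overlap, and the log2 change was 0.92 (SE 0.28, edgeR adjusted p = 0.0258). It was higher by 1.13 at FGO 3W (edgeR adjusted p = 0.0219) and was not called later. Of the 24 members with the ZFP143 motif, 5 were higher and 1 lower at GO 2W (median log2 change 0.02), against 16 higher and 9 lower of 124 without it (median 0.05). At MII 3W 5 with the motif were higher and 9 lower (median -0.245), against 15 higher and 55 lower without it (median -0.50). At zygote 3W the order was the opposite, with 1 higher and 13 lower among those with the motif (median -0.94) and 14 higher and 37 lower among those without (median -0.31). Of those 24 members 20 had a KRAB box, and the part of the motif was not tested.

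Zfp281, which represses pluripotency genes with NuRD in mouse embryonic stem cells, was higher by 0.80 at GO 2W and 1.26 at MII 3W and lower by -0.89 at zygote 3W. In MII oocytes it had 20.4, 10.6, 15.8 and 20.1 CPM in CKO against 5.97, 5.18 and 7.05 CPM in WT, with no overlap (edgeR adjusted p = 0.000137). Zfp598, the ubiquitin ligase that marks collided ribosomes, had 45.3, 110.3, 75.6 and 30.6 CPM in CKO against 21.0, 23.2 and 32.6 CPM in WT MII oocytes. CKO replicates 2 and 3 were highest and replicate 4 lay within WT (log2 change 1.19, SE 0.36, edgeR adjusted p = 0.0122). Zfp593, whose human and yeast counterparts serve the making of the large ribosomal subunit, had 3.71 and 2.65 CPM in CKO against 21.6 and 22.8 CPM in WT at FGO 3W (log2 change -3.07, SE 0.41, edgeR adjusted p = 7.71e-06), and was lower by -1.32 at FGO 4W and -2.26 at zygote 3W.

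Zfp568, a KRAB repressor of a placental Igf2 transcript in mice, was lower by -0.55 at GO 2W and higher by 0.50 at zygote 3W. Zfp592 and Zfp532, zinc finger partners of ZMYND8, were lower at GO 2W by -0.43 and -0.98 and at FGO 3W by -0.56 and -1.30, and Zfp592 was also lower at MII 3W, by -0.56. The third of that complex, Zfp687, was called at no stage. Zfp638, linked in human cells to the silencing of unintegrated retroviral DNA, was lower by -0.66 at FGO 4W and -0.97 at MII 3W, Zfp644, a partner of the G9a methyltransferase, by -1.10 at zygote 3W, and Zfp148 by -0.60 at MII 3W. Zfp91, a ubiquitin ligase gene, was higher by 1.11 at FGO 4W and 1.17 at MII 3W, Zfp706 by 0.59 at FGO 4W and Zfp335 by 0.95 at zygote 3W. Zfp207, a spindle assembly factor, was called at no stage, with 298, 150.3, 144 and 344 CPM in CKO against 243, 262 and 253 CPM in WT MII oocytes. Of 25 names of known role, 6 lay below the level rule, among them the pluripotency gene Zfp42 (2.54 CPM) and the AU-rich element binding gene Zfp36 (8.50 CPM), each as its highest mean in the rule's groups.

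Neighbouring KRAB genes on chromosome 4 gave opposite differences at successive stages. Zfp985 (147553277 to 147585201) had 5.83 and 6.58 CPM in CKO against 65.8 and 56.9 CPM in WT at FGO 3W. It had 59.4, 89.6 and 65.3 CPM in CKO against 2.96, 4.92 and 7.51 CPM in WT at FGO 4W, and 49.5, 35.5, 42.8 and 46.6 CPM in CKO against 153, 147 and 157 CPM in WT at MII 3W. The groups were apart each time, CKO below, above and below WT. The log2 changes were -3.58, 3.60 and -1.996 (edgeR adjusted p = 0.000156, 5.48e-06 and 0.000494).

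Zfp990, elsewhere on chromosome 4 (145510759 to 145538251) and outside the gene group of Zfp985, did the same. It had 0.450 and 0.465 CPM in CKO against 17.4 and 14.9 CPM in WT at FGO 3W (log2 change -5.40, SE 0.80, edgeR adjusted p = 3.01e-05) and 53.6, 71.7 and 59.7 CPM in CKO against 8.06, 6.08 and 7.35 CPM in WT at FGO 4W (log2 change 2.92, SE 0.56, edgeR adjusted p = 0.000259). At MII 3W it was lower by -2.12. Zfp988 was higher by 2.22 at FGO 4W and lower by -1.88 at MII 3W, while Zfp979 was higher at FGO 3W, with 265.5 and 318 CPM in CKO against 31.1 and 25.4 CPM in WT (log2 change 3.10, SE 0.55, edgeR adjusted p = 0.000233). Reads may be shared among these genes: 15.1% of the windows of Zfp985, 27.8% of Zfp990, 71.9% of Zfp988 and 24.3% of Zfp979 occurred in another gene. Zfp534 and Zfp978, of the same group, were called higher at FGO 3W (log2 changes 2.53 and 2.46), calls lost without any 1 of the 4 libraries (edgeR adjusted p 0.0790 to 0.211 and 0.0945 to 0.193).

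**Figure D5:**
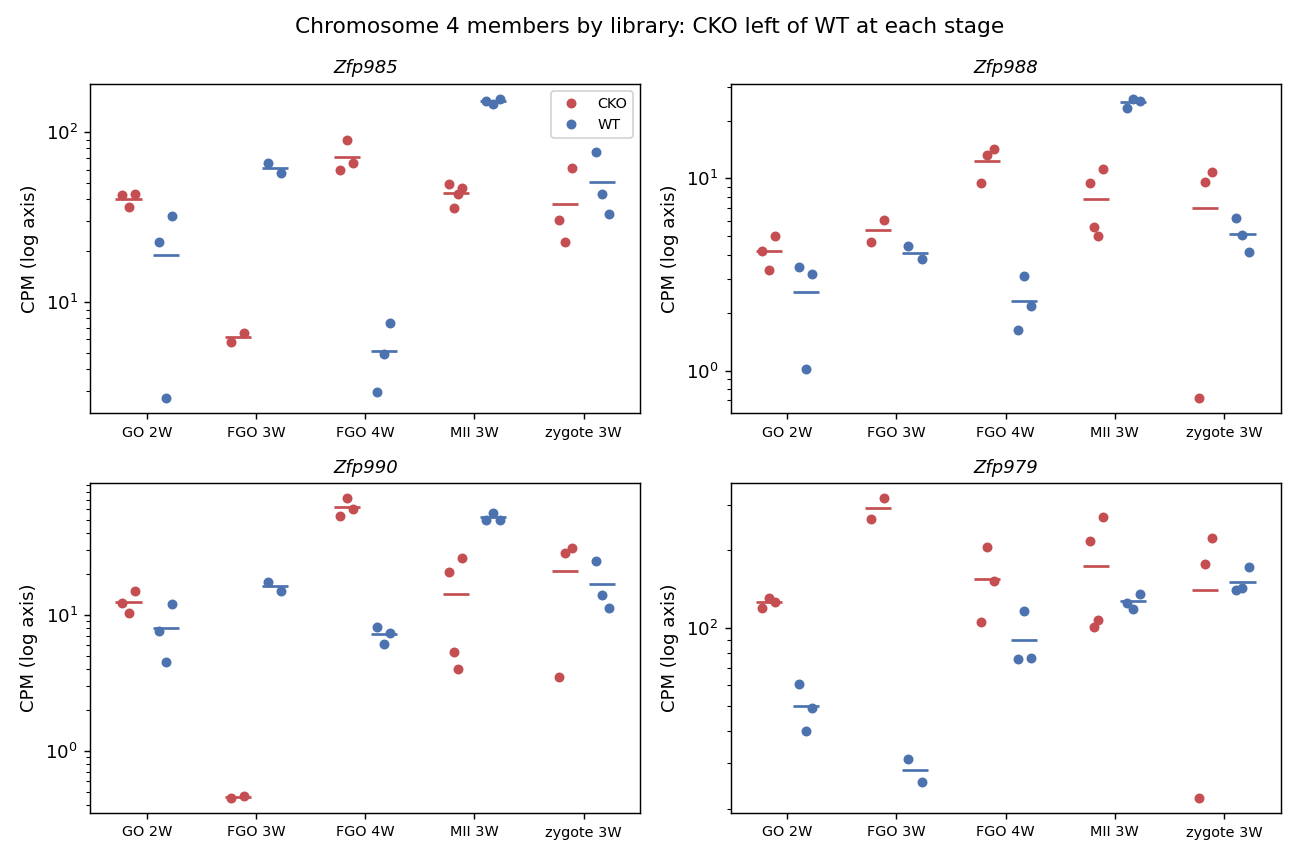
CPM per library, on a log axis, of Zfp985, Zfp988, Zfp990 and Zfp979, KRAB genes on chromosome 4, by stage, CKO left of WT. For Zfp985 CKO lies below WT at FGO 3W and MII 3W and above it at FGO 4W.

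Members within 500000 bases of one another formed 8 groups of at least 4 genes. The group on chromosome 4 (146512849 to 147849126, 9 members, all KRAB) had 3 members higher and 0 lower at FGO 4W and 6 lower and 0 higher at MII 3W, with a median log2 change of -1.70. The largest group, on chromosome 17 (21008941 to 22456689, 13 KRAB members), had 7 lower at MII 3W (median -0.71) and 1 lower with 2 higher at zygote 3W. The lowest medians in zygotes were -1.05 for 9 members on chromosome 7 (29768552 to 30107622, 5 lower), -1.14 for 7 on chromosome 17 (32879221 to 33631716, 4 lower) and -1.15 for 6 on chromosome 8 (69209018 to 69774911, 4 lower). They were -0.80 for 7 on chromosome 13 and -0.86 for 6 on chromosome 7, each with 3 lower. The chromosome 4 group had a zygote median of -0.145 (1 lower) and the largest group 0.255. A group of 4 on chromosome 6 had 0.55 (2 higher, 1 lower). Of genes at the same level rule 28.2% were lower at MII 3W and 23.1% at zygote 3W, and 10.8% were higher at FGO 4W.

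In the smaller group of 6 KRAB genes on chromosome 7 (24132372 to 24316698), Zfp109 and Zfp111 also changed sides. Zfp109 had 37.7, 37.0 and 39.6 CPM in CKO against 3.04, 0.339 and 2.18 CPM in WT at GO 2W (log2 change 4.14, SE 0.78, edgeR adjusted p = 0.000633), and 1.78 and 2.79 CPM in CKO against 32.2 and 20.9 CPM in WT at FGO 3W (log2 change -3.82, SE 0.93, edgeR adjusted p = 0.00452). The FGO 3W call was lost without CKO replicate 1 (edgeR adjusted p = 0.0778). Zfp111 had 32.3, 26.2 and 33.6 CPM in CKO against 4.58, 3.50 and 4.71 CPM in WT at GO 2W (log2 change 2.67, SE 0.31, edgeR adjusted p = 1.31e-06) and was lower by -2.94 at FGO 3W, higher again by 1.08 at FGO 4W and lower by -2.27 at zygote 3W. Zfp109 was higher again at MII 3W, by 2.85 (edgeR adjusted p = 0.00336). Neither pair of ranges overlapped at GO 2W or FGO 3W.

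From stage to stage, CKO cells changed many members. From GO 2W to FGO 4W 9 members were higher and 30 lower at FGO 4W, against 7.64% and 9.48% of all genes (10.4% and 15.3% at the same level rule); RLE factors gave 14 and 27. From FGO 4W to MII 3W 55 were higher and 67 lower at MII 3W, against 26.0% and 30.1% (42.7% and 35.3% at the same level rule), with 23 KRAB members higher and 47 lower, and 32 members without the box higher and 19 lower. Library totals gave 32 higher and 91 lower, with the median change of all genes at -0.78 against -0.18 under TMM. From MII 3W to zygote 3W 35 were higher and 15 lower in the zygote, against 13.6% and 8.62% (22.5% and 14.7%). From GO 2W to FGO 4W and from FGO 4W to MII 3W the stage cannot be told apart from age, whereas MII and zygote libraries were both of 3W. In all these changes the stage cannot be told apart from batches that the labels do not record. In WT, given as values alone, 49 members were at least 1 higher on the log2 scale and 48 at least 1 lower in MII than in FGO 4W, and 42 and 25 in zygote than in MII.

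The largest changes in CKO were at maturation. Zfp707 fell by 7.88 on the log2 scale, Zfp61 by 4.65 and Zfp524 by 4.37, all with lower WT levels at MII as well (log2 changes -5.80, -5.10 and -5.25). Zfp536 rose by 5.33 and Zfp770 by 4.85, against 0.22 and 1.76 in WT. The genotype effect itself differed between stages for 5 members upward and 17 downward at growth (1.92% and 3.46% of all genes, 2.65% and 5.36% at the same level rule), 18 and 25 at maturation (11.6% and 6.11%, and 18.6% and 9.85%), and 23 and 21 at fertilization (7.49% and 8.2%, and 14.1% and 13.7%). Without CKO zygote 3W replicate 1 the number upward at fertilization was 36, scaling by library totals gave 6 upward and 33 downward, and with the 3 libraries that stood apart left out 34 were downward.

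The partners of KRAB silencing changed in both directions at the last stages. Of 31 co-repressor, H3K9 and DNA methylation genes, listed without a level rule, 12 were higher (38.7%), 6 lower (19.4%) and 13 not called at MII 3W. Of all genes 18.2% were higher and 14.7% lower, and of genes at the level rule 22.0% and 28.2%. The median log2 change was 0.14 over the list, 0.13 over all genes and -0.07 at the level rule. At zygote 3W 11 were higher (35.5%), 4 lower (12.9%) and 16 not called. All genes then gave 14.5% and 12.5%, and genes at the level rule 19.2% and 23.1%. The medians were 0.28, 0.08 and -0.04 in the same order. Before these stages 2 or 3 were higher and 5 to 7 lower. Chd3, Ehmt2 and Mta2, higher at both late stages, stayed at or below 6.03 CPM in all WT libraries. Cbx3, the gene of a heterochromatin protein 1, was lower at MII 3W (log2 change -4.24, SE 0.44, edgeR adjusted p = 2.28e-08). Its levels there were low, at 0.826, 0.508, 0.474 and 0.333 CPM in CKO against 11.4, 9.69 and 5.63 CPM in WT. Trim28 had 188, 358, 298 and 112 CPM in CKO against 110.5, 105 and 106 CPM in WT at MII 3W. CKO replicates 2 and 3 were highest and replicate 4 lay just above WT (log2 change 0.99, edgeR adjusted p = 0.0232). The H3K9 methyltransferase gene Setdb1 was higher at zygote 3W by 0.61 (edgeR adjusted p = 0.00102). It had 204, 318 and 388 CPM in CKO against 220, 229 and 194 CPM in WT, so CKO replicate 1 lay within WT. Another such gene, Suv39h1, was lower by -1.93 in zygotes (edgeR adjusted p = 3.36e-07) and by -1.18 at MII 3W. It had 12.2, 10.2 and 21.6 CPM in CKO against 71.1, 46.7 and 65.3 CPM in WT zygotes. Cbx5, Atrx and Mphosph8 were also lower in zygotes, by -1.50, -0.75 and -0.48. Other finger families at the same level rule differed from one another. Of 13 Zscan and Zkscan genes 6 were lower (46.2%) and 2 higher (15.4%) at MII 3W, with a median log2 change of -0.45. At zygote 3W 7 were lower (53.8%) and 3 higher (23.1%), with a median of -0.68. Of the members 40.2% and 31.3% were lower at these stages, and of genes at the level rule 28.2% and 23.1%. Lower calls thus outnumbered higher ones in this family too. The family is small, and its difference from the members was not tested. Of 22 Zbtb genes 6 were lower and 6 higher at MII 3W, and 4 lower and 5 higher at zygote 3W. Of 6 Klf genes 3 were lower and 0 higher at MII 3W, and 0 were called at zygote 3W. Of 11 Zc3h genes, whose fingers are of another type, 1 was lower and 1 higher at each of these stages.

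A G-quadruplex motif on the transcript strand was found in 18 of 178 members (10.1%), against 16.9% of 20751 genes with a coding transcript. Of these 18, 3 were higher and 3 lower at MII 3W and 5 higher and 5 lower at zygote 3W. Of the 160 members without it, 19 were higher and 68 lower at MII 3W, and 12 higher and 51 lower at zygote 3W. The difference between these sets was not tested.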

How the data were processed

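Poly(A) RNA of 29 Smart-seq2 libraries in 10 groups was analysed from the deposited tables. The submitters' processing notes name Trim Galore, FastQC, HISAT2, SAMtools, featureCounts and mm10; annotation release and strand setting are not given in the sources used here, so reads of overlapping or antisense genes cannot be told apart. The authors deposited raw counts per gene symbol, with no normalization, and FPKM, which divide counts by gene length and depth. Even values made up 81% of counts between 1 and 20, as when both mates of a pair are counted. No deposited column was left unused. Totals ran from 17697507 to 49104313 counts.

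The count test was edgeR 4.0.16 in R 4.3.3, with TMM factors, filterByExpr at a minimum count of 10 (21768 genes kept), a single model over the 10 groups, a trended dispersion and quasi-likelihood tests (residual degrees of freedom 19, prior 8.308). Log2 changes are CKO over WT, or later over earlier stage, and p-values were adjusted over all genes tested at 0.05. CPM are counts scaled to the library total. The script was tested on simulated data. Alternatives were RLE factors, library totals, no filter, a replicate block, the contrasted groups alone, DESeq2 1.42.0 and leaving out each library; 1 was added after seeing the data. Same-numbered CKO and WT libraries of a stage had correlations of -0.0797 to 0.0392 between their deviations from group means, so the numbers do not pair the samples.

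C2H2 fingers and KRAB boxes (6 of 8 conserved positions) were searched in translated GENCODE transcripts; RefSeq proteins had been planned but were not used here. The KRAB search also matched 21 genes without fingers, against 20748 such genes not matched. Positions and promoters are from RefSeq on GRCm38.p6. Named members are those with the 5 largest changes in each direction at a stage (called, ranges apart, and a mean of 5 CPM or more in whichever group was higher), those called in 1 direction at 4 or 5 stages, 25 names of known role, the 5 highest by FPKM at each WT stage, the 3 largest of each stage change and difference, and the 3 nearest to the threshold on either side. The members and lists were chosen with earlier results of these data known.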

Additional observations from a re-analysis of the deposited data

Results flagged for a closer look

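In the group of 4 CKO MII 3W libraries, Zfp398 was at 32.2 CPM in replicate 2, far above the other three (16.4 to 18.6 CPM). This was 1 of 70 named members looked at in that group, and chance alone flags about 1 in 20.

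For 18 named cases the genotype effect differed between stages in the edgeR fit (adjusted p under 0.05), each given as a difference of log2 changes. Between GO 2W and FGO 4W it was higher at FGO 4W by 1.62 for Zfp24, 1.45 for Zfp820 and 2.69 for Zfp985, and differed by -3.42 for Zfp536, -3.07 for Zfp770 and -3.31 for Zfp961. Between FGO 4W and MII 3W it differed by 5.10 for Zfp536, 3.09 for Zfp770, 2.64 for Zfp839, -5.59 for Zfp985, -4.10 for Zfp988 and -5.04 for Zfp990. Between MII 3W and zygote 3W it differed by 2.29 for Zfp677, 2.40 for Zfp988, 2.53 for Zfp990, -3.44 for Zfp109, -2.88 for Zfp536 and -2.73 for Zfp963. The Zfp820 and Zfp839 differences were lost in most fits that left out 1 library, and the Zfp839 difference was 0.57 (adjusted p = 0.327) without CKO MII 3W replicates 2 and 3 and CKO zygote 3W replicate 1.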

How the results depend on the processing

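Among the 86 changes of named members none reversed under any alternative run. They were picked as the largest called changes of the main fit, so a reversal was unlikely from the start. They do not stand for the other calls. Of 560 values under alternatives other than leaving out 1 library 10 lost their call, and of 638 values with 1 library left out 44 did.

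Fitted on the contrasted groups alone, the counts of members called were 47 higher and 32 lower at GO 2W, 47 higher at FGO 3W, 35 higher at FGO 4W, 13 higher at MII 3W, and 7 higher and 30 lower at zygote 3W. Calls over all genes moved as well. In these fits 3520, 3860, 3461, 3220 and 1112 genes were higher from GO 2W to zygote 3W, of 15519 to 19876 tested. The main fit had 1597, 1782, 2567, 3971 and 3162 of 21768. Lower genes numbered 2827 against 1388 in the main fit at GO 2W, and 988 against 2719 at zygote 3W. For the changes in CKO they were 29 higher and 61 lower at growth and 6 higher and 3 lower at fertilization, and for the differences of the genotype effect 15 and 40 at growth and 5 higher at fertilization. Scaling by library totals gave 7 lower at GO 2W, 32 higher in CKO at maturation, and differences of 6 upward and 33 downward at fertilization. Over all genes the same counts were 810, 3478, and 732 and 2964, against 1388, 5663, and 1630 and 1785 in the main fit. RLE factors and DESeq2 each gave 14 higher in CKO at growth; DESeq2 also gave differences of 8 upward at growth and 41 downward at maturation, and no low-count filter gave 8 upward at growth. Without CKO MII 3W replicates 2 and 3 and CKO zygote 3W replicate 1, 23 were lower in CKO at fertilization and 34 differences were downward. The causes were not tested.

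With 1 library left out at a time, members higher and lower ranged over 10 to 22 and 6 to 11 at GO 2W, 8 to 15 and 15 to 23 at FGO 3W, 12 to 19 and 37 to 44 at FGO 4W, 14 to 24 and 60 to 74 at MII 3W, and 11 to 19 and 49 to 65 at zygote 3W. For CKO changes they ranged over 7 to 9 and 22 to 27 at growth, 50 to 57 and 58 to 70 at maturation, and 28 to 45 and 15 to 21 at fertilization. For differences they ranged over 3 to 6 and 11 to 16 at growth, 11 to 20 and 20 to 37 at maturation, and 12 to 36 and 20 to 31 at fertilization.

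With the replicate number as a block, 21 members were higher and 74 lower at MII 3W and 19 higher and 58 lower at zygote 3W; no count of members moved by over 1.5 times under the replicate block. FGO 3W had 2 libraries of each genotype, and in simulated data most changes of 1 on the log2 scale were missed at every stage, so an uncalled member is not shown to be alike in both genotypes.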
